A study of Bos taurus with 2 samples.

Results

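The genes described are 10 genes of endothelial identity in the fetal *longissimus thoracis* (LT) muscle of Japanese Black cattle, namely *CDH5*, *CLDN5*, *ESAM*, *PECAM1*, *CD34*, *CLEC14A*, *VWF*, *ERG*, *SOX17* and *SOX18*. Their 25 probes were found by matching the accession given with each probe to the gene symbol, among 43652 probes and 19554 genes for which a fold could be given. Of these genes, 10637 had a symbol and 8917 were kept under an accession that matched none, each counted as a gene in the shares of all genes below. Probes of the 10 genes under such accessions would be missing here, so the number of probes given for a gene counts matched probes only. The 10 genes were chosen by their known endothelial role with the LN and HN signals of these same arrays already in view, so their values are a description and no test was made of them. Each group was measured as a single pool of total RNA from 4 fetuses, on 1 Agilent bovine array with a single dye, and both arrays lay on the same slide. The HN pool came from dams fed 120% of the nutritional requirement during gestation, to which 6 dams were assigned, and the LN pool from dams fed 60%, to which 5 were assigned. All dams were Japanese Black, they conceived from male-sorted semen of a single sire, and the fetuses were taken at 8.5 months (day 260 ± 8.3). The HN pool held the fetuses with the highest BW and the LN pool those with the lowest, so diet and the selection by BW cannot be told apart. Each group has 1 array, so the spread between fetuses is not known, and "lower" and "higher" below compare these pools only.

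Endothelial cells line blood vessels, and in skeletal muscle most of them belong to the capillaries between the fibres. They are joined to each other by adherens junctions built on VE-cadherin and by tight junctions that contain claudin-5, and the genes for these proteins are controlled by transcription factors of the ETS family, such as ERG, and of the SoxF group, to which SOX17 and SOX18 belong. Because these genes are expressed mainly in endothelium, their signals in whole muscle depend on the amount of endothelium as well as on the expression in each cell, and fewer endothelial cells cannot be told apart from less RNA per cell in such samples.

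Spots well above background made up 74.5% of the HN array and 70.9% of the LN array, and no spot was saturated. Of the 14 skeletal muscle markers listed, 11 were matched and each of these gave a detected signal in both pools. Between repeated spots of 42 probes, log2 LN/HN had an SD of 0.085 for a single spot, so that 1.96 SD correspond to 0.17 on the log2 scale, or 1.12-fold. For the difference between 2 probes, 1.96 SD correspond to 0.24. These errors cover the array measurement and not the animals, and they come from probes with a median log2 signal of 8.30, so they do not hold for dim probes. No endothelial probe was itself printed in several spots. Signals are given below as quantile-normalized log2 intensities, and a change as log2 LN/HN, where a negative value means a lower signal in the LN pool.

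The log2 LN/HN differed from gene to gene, and whether the differences exceed the error of the arrays depends on which error is used, as given below. By the mean over the probes of each gene, 7 of the 10 genes had a lower signal in the LN pool, against 50.7% of all genes, and 3 (*CD34*, *VWF* and *ERG*) had a higher mean. The median log2 LN/HN was -0.17, against -0.0033 over all genes, and the SD between the genes was 0.27. Past 1.25-fold, the fold at which genes were taken into pathway analysis in the study, 2 genes were lower (*CLDN5* and *SOX18*), against 9.11% of all genes, and 0 were higher, against 8.85%. Among genes with a symbol alone, 50.4% were below 0, 8.01% passed 1.25-fold lower and 7.80% passed it higher. Taking the brightest probe of each gene, all 10 genes were below 0, against 50% of all genes, although *CLEC14A* lay at -0.01 and moved above 0 in 5 of the 15 other settings tried. By the brightest probe 3 genes (*SOX18*, *CLDN5* and *PECAM1*) passed 1.25-fold, against 9.19% of all genes, the median was -0.25 and the SD 0.16.

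**Figure D1:**
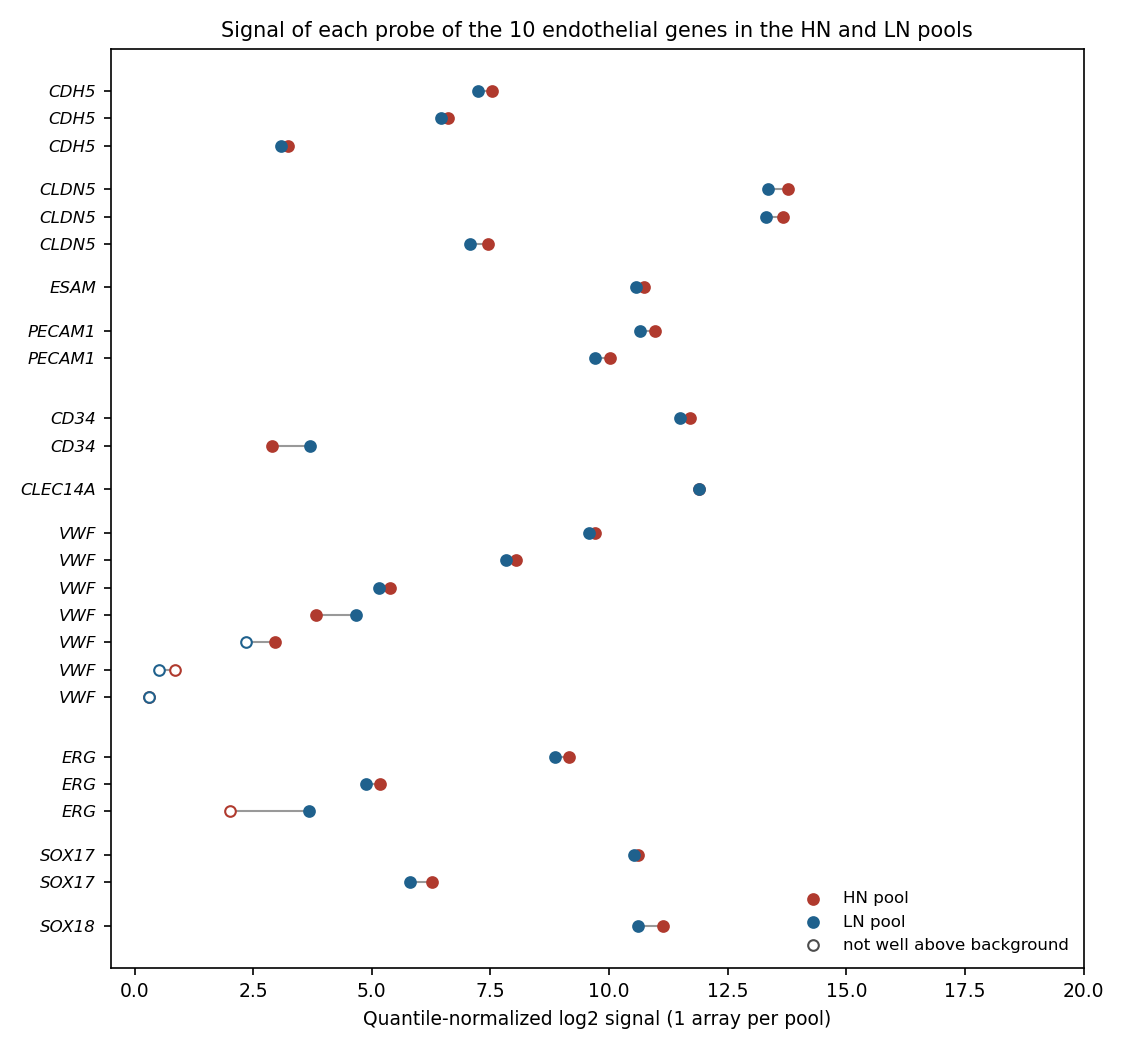
Quantile-normalized log2 signal of each of the 25 probes of the endothelial genes (x axis) by gene (y axis), with 1 point for the HN pool and 1 for the LN pool, and open points where the probe was not well above background. The LN point lies to the left of the HN point in 19 of the 21 probes measured on both arrays, and the 2 exceptions are dim probes of *CD34* and *VWF*.

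All 4 junction genes had a lower signal in the LN pool. *CDH5* (NM_001001601) encodes VE-cadherin, the adhesion molecule of endothelial adherens junctions. Its brightest probe had a log2 signal of 7.53 on HN and 7.25 on LN, a log2 LN/HN of -0.28. Another probe went from 6.60 to 6.46 (-0.14), and a dim probe from 3.23 to 3.09 (-0.14). Every *CDH5* probe was thus lower in the LN pool, and the mean of the 3 was -0.19, or 1.14-fold lower. *CLDN5* (NM_001076460) encodes claudin-5, the main claudin of endothelial tight junctions. Its probes measured 13.77 on HN and 13.35 on LN (-0.42), 13.67 and 13.30 (-0.37), and 7.45 and 7.06 (-0.39). The 3 probes differed by at most 0.05 in log2 LN/HN, and their mean of -0.39 is 1.31-fold lower.

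*PECAM1* (NM_174571) encodes CD31, an adhesion molecule of endothelial contacts that platelets and leukocytes also carry. Its probes measured 10.97 on HN and 10.64 on LN (-0.33), and 10.02 and 9.71 (-0.31). Both were lower in the LN pool, and the mean of -0.32 is 1.247-fold lower, just short of 1.25-fold. *ESAM* (NM_001078066) encodes an adhesion molecule of endothelial tight junctions and has 1 probe. Its signal was 10.73 on HN and 10.58 on LN, a log2 LN/HN of -0.16, which lies within 1.96 SD of a single spot. Within the junction genes, the log2 LN/HN of the brightest probes of *CLDN5* and *ESAM* differed by 0.26, which is past the 0.24 from repeated spots but not the 0.57 from the error estimated by the software.

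The 3 surface and secreted genes had a median of -0.13 by the brightest probe, against -0.31 for the junction genes. *CD34* (NM_174009) encodes a sialomucin found on capillary endothelium and also on progenitors of blood and of fibro-adipogenic cells. Its bright probe measured 11.71 on HN and 11.50 on LN (-0.21), and its dim probe 2.89 and 3.70 (0.81). The probes go in opposite directions, so the mean of 0.30 describes neither, and the software gave an error of 19.1% of the signal on HN and 16.1% on LN for the dim one. *CLEC14A* (NM_001077890) encodes a C-type lectin domain protein of endothelium. Its only probe, measured at 11.90 in both pools, had a log2 LN/HN of -0.01. The difference between the pools was thus far smaller than the error of a spot.

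*VWF* (NM_001205308) encodes von Willebrand factor, a clotting protein that endothelial cells store in Weibel-Palade bodies and that platelets also hold. It has 7 probes, of which 4 were measured on both arrays. The brightest measured 9.71 on HN and 9.57 on LN (-0.13), the next 8.05 and 7.83 (-0.22), and a further one 5.39 and 5.15 (-0.24). These 3 probes were lower in the LN pool by similar amounts. The remaining probe measured on both arrays was higher in the LN pool, with 3.81 and 4.66 (0.85). A probe that was not well above background on LN measured 2.95 on HN, which gives a log2 LN/HN of -0.13 or lower against the limit of detection, and 2 probes were not well above background on either array. The mean of *VWF*, 0.02, therefore joins probes of opposite direction.

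The transcription factors included the lowest log2 LN/HN of the 10 genes, that of *SOX18*. *SOX18* (NM_001075789) encodes a SoxF factor of vascular and lymphatic development and has 1 probe, with a log2 signal of 11.13 on HN and 10.61 on LN. Its log2 LN/HN of -0.52, or 1.43-fold lower, ranked 615 from the lowest of 19554 genes, and lay between -0.52 and -0.47 in every setting tried. *SOX17* (NM_001206251) encodes the SoxF factor of arterial endothelium. Its brighter probe measured 10.60 on HN and 10.53 on LN (-0.07), and the other 6.26 and 5.80 (-0.46). Both probes were lower in the LN pool, but they differed by 0.39, past the 0.24 from repeated spots, so the mean of -0.27 is uncertain in size. *ERG* (NM_001102183) encodes an ETS factor that maintains the expression of junction genes such as *CDH5* and *CLDN5*. Its bright probes measured 9.16 on HN and 8.86 on LN (-0.30), and 5.18 and 4.87 (-0.31). These probes are alike and lower in the LN pool. Its dim probe was well above background on LN only, with 3.68, and was at least 2.66-fold higher there (a log2 LN/HN of at least 1.41). The mean of *ERG*, 0.27, is above 0 because of this probe alone, and the mean of the bright probes is -0.31.

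**Figure D2:**
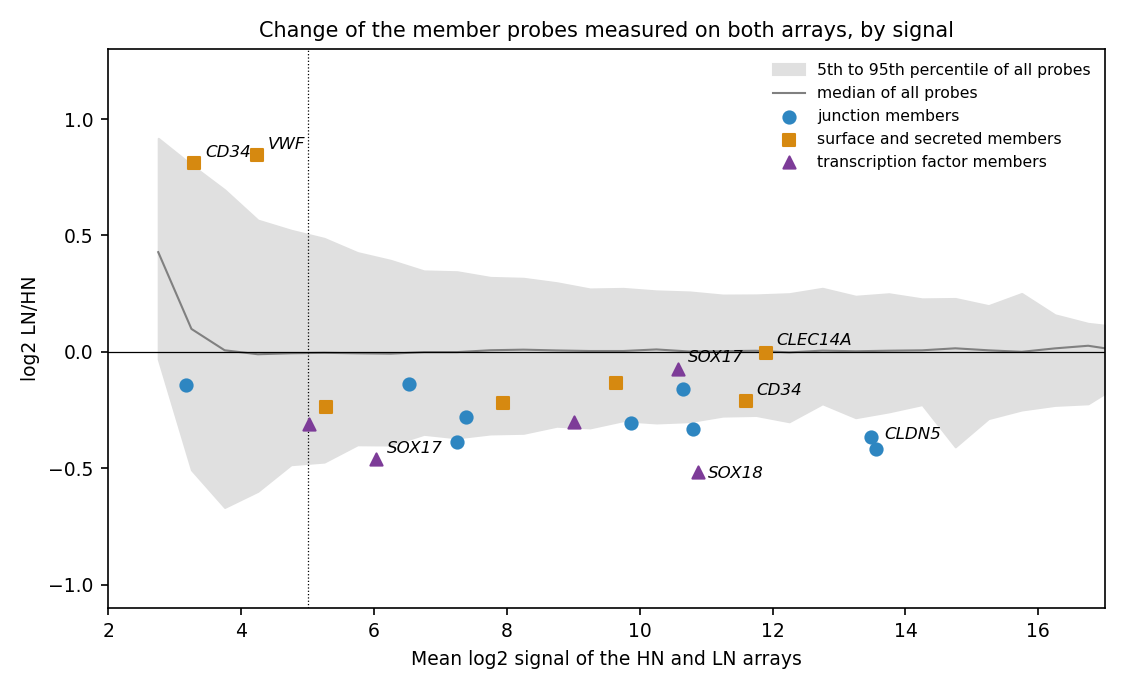
Log2 LN/HN (y axis) against the mean log2 signal (x axis) of the 21 endothelial probes measured on both arrays, over the spread of all probes of similar signal. The 18 probes with a mean log2 signal of at least 5 lie below 0, and the dim probes of *CD34* and *VWF* lie far above it.

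The endothelial probes that were higher in the LN pool were all dim ones. A mean log2 signal of 5, a limit chosen after the values were seen, was used to part bright from dim probes. All 18 bright endothelial probes were below 0, against 49.3% of the 23899 bright probes on the arrays. Of these 18 probes, 6 passed 1.25-fold lower, against 6.15% of all bright probes. They were the probe of *SOX18*, the 3 of *CLDN5*, the brightest of *PECAM1* and the less bright of *SOX17*. The median of the 18 was -0.29 with an SD of 0.14, while all bright probes had a median of 0.0025 and an SD of 0.23. Of the 3 dim endothelial probes measured on both arrays, 1 was below 0, against 47.2% of 6740 dim probes, 0 passed 1.25-fold lower, against 16.0%, and 2 passed it higher, against 20.6%. Dim probes scatter more on these arrays, with an SD of 0.38, and the faintest lean upward, with a median of 0.10 for all probes of a mean log2 signal between 3.0 and 3.5. The value of 0.81 of the dim *CD34* probe lies just past the 95th percentile of that range, 0.80. The dim *VWF* probe, at 0.85, lies past the 95th percentile of probes between 4.0 and 4.5, 0.57.

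Against probes of similar signal, 7 of the 18 bright endothelial probes lay below the 5th percentile and 11 lay inside the range between the 5th and 95th percentiles. *SOX18* at -0.52 and the brighter *PECAM1* probe at -0.33 were set against a 5th percentile of -0.30. The brightest *CLDN5* probe at -0.42 was set against -0.26. The bright probes of *CDH5*, *ERG*, *CD34*, *ESAM*, *VWF* and *CLEC14A* lay inside the range. The error estimated by the software is wider than that of repeated spots, at 10% to 11.1% of the signal, which gives 0.20 to 0.22 on log2 LN/HN. It is nearly the same for each of these probes and does not come from repeated spots. Against 1.96 times this error, 3 of the 18 bright probes lay outside, those of *SOX18* (-0.52), *SOX17* (-0.46) and the brightest of *CLDN5* (-0.42). The share of all bright probes past this limit was not counted, and their 5th percentile was -0.35.

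**Figure D3:**
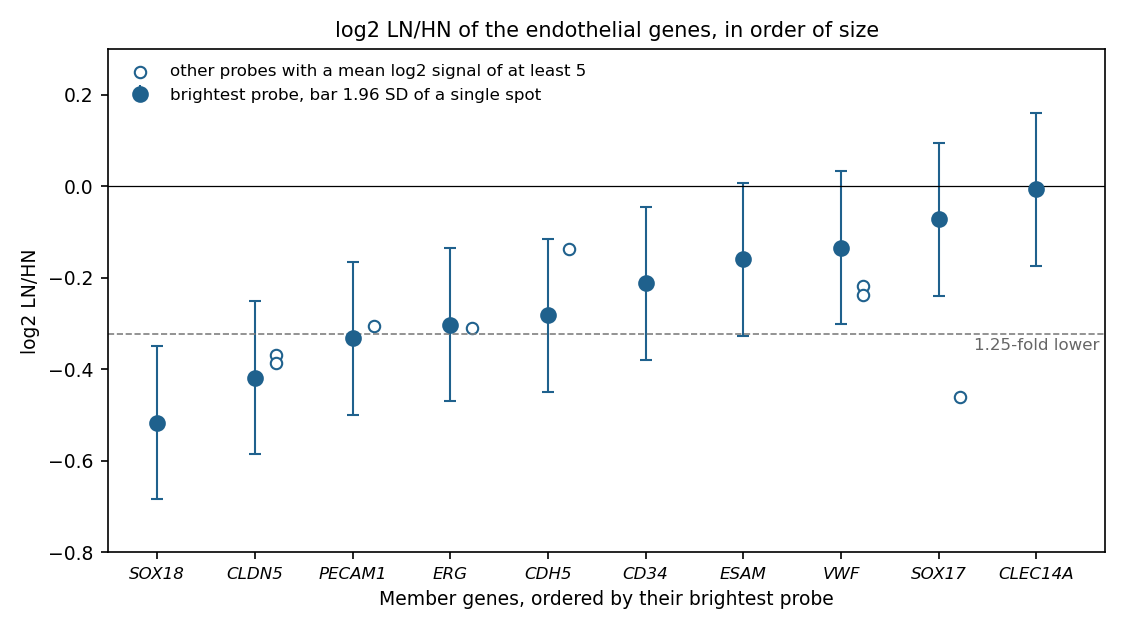
Log2 LN/HN of the brightest probe of each endothelial gene (filled points, bars 1.96 SD of a single spot), with the other probes of a mean log2 signal of at least 5 as open points and 1.25-fold lower as a dashed line. The order runs from *SOX18* at -0.52 to *CLEC14A* at -0.01, and the bars of neighbours overlap.

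By the brightest probe the genes ran from *SOX18* (-0.52) through *CLDN5* (-0.42), *PECAM1* (-0.33), *ERG* (-0.30), *CDH5* (-0.28), *CD34* (-0.21), *ESAM* (-0.16), *VWF* (-0.13) and *SOX17* (-0.07) to *CLEC14A* (-0.01). No gene differed from its neighbour in this order by more than 0.10, which is within the 0.24 of 1.96 SD of a difference. Of the 45 pairs of genes, 13 differed by more than 0.24. The share of pairs of other genes past this limit was not counted. All bright probes had an SD of 0.23, against 0.14 for the bright endothelial probes, so the count is not read as particular to these genes. With the wider error of the software, 1.96 errors of a difference come to 0.57, and 0 of the 45 pairs passed it. This limit is nearly the same for all 45 pairs, because the software gave about 10% of the signal as the error of each of these probes. *SOX18* and *CLEC14A*, the ends of the order, differed by 0.51, which is 4.23 SD of a difference from repeated spots and 1.77 errors of a difference from the software. *SOX17* and *SOX18*, of the same SoxF group, differed by 0.45 in their brightest probes, but by less than that if the other *SOX17* probe is taken. By the brightest probe and against 0, 6 genes lay past 1.96 SD of a single spot and 4 (*ESAM*, *VWF*, *SOX17* and *CLEC14A*) lay within it. Other bright probes of *VWF* (-0.22 and -0.24) and *SOX17* (-0.46) lay past it. The share of all genes past this limit of 0.17 was not counted, and the SD of all bright probes, 0.23, is wider than the limit. Differences between genes at the ends of the order thus passed the limit from repeated spots but not that from the software, and differences between neighbours passed neither.

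Other genes of endothelium were set beside these 10, and the range of each list's median over the 15 other settings is given with it. The counts of each list stand against 50.7% of all genes lower, 9.11% past 1.25-fold lower and 8.85% past it higher. Among these settings is normexp, a model-based background correction, run with an offset of 50. Adding this offset to every signal shrinks the changes of dim probes. Of the 12 partners of VE-cadherin listed, 10 had a value, 6 were lower and 4 higher, 1 passed 1.25-fold lower, and the median was -0.02 (-0.03 to 0.01). *RASIP1*, an effector of the small GTPase Rap1 in endothelial junctions, was the lowest, with 12.87 on HN and 12.19 on LN (-0.68). *CTNNA1*, the alpha-catenin that ties cadherins to actin in many cell types, was at -0.07, and *PTPRB*, the endothelial phosphatase VE-PTP, at -0.20. *RADIL*, another effector of Rap1, was higher at 0.31. Of the 10 tight junction partners listed, 7 had a value and all 7 were lower by their means, with a median of -0.15 (-0.21 to -0.02, the last after normexp), though 5 of 7 were lower by the brightest probe. By their means the lowest were the junctional adhesion molecules *JAM2* (-0.29), *F11R* (-0.18) and *JAM3* (-0.16), and 0 of the 7 passed 1.25-fold. By the brightest probe 1 passed it lower, *OCLN* at -0.45, which is named after its value was seen. That probe is dim (4.57 on HN and 4.11 on LN) and inside the 5th percentile of -0.60 for its signal, and the other *OCLN* probe was higher at 0.32.

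Among 21 other transcription factors of endothelium, 16 had a value, of which 14 were lower, with a median of -0.19 (-0.23 to -0.10, the last after normexp) and 3 past 1.25-fold lower. *TCF15*, a basic helix-loop-helix factor of capillary endothelium, measured 11.75 on HN and 11.17 on LN (-0.58). *FOXC2*, of vascular and lymphatic development, was at -0.46, inside the 5th percentile of -0.47 for probes of similar signal. *TAL1*, of blood and endothelial origin, was at -0.36 by a dim probe (4.24 on HN and 3.88 on LN), also inside the 5th percentile of its range, -0.60. *MEOX2*, a homeobox factor also of capillaries, was higher at 0.17, and *HHEX* at 0.26. Among 34 surface and cytoplasmic genes of endothelium, 25 had a value, 22 were lower, the median was -0.20 (-0.23 to -0.13) and 5 passed 1.25-fold lower. *EGFL7*, a secreted endothelial protein, was at -0.45, the arterial connexin gene *GJA4* at -0.34, *ARHGEF15* at -0.34 and *ECSCR* at -0.33, and *BMX*, not well above background on LN, at -0.52 or lower. The genes of storage granules and of activation, to which *VWF* is related by its place of storage, stood close to 0. Of 10 with a value, 3 were lower and 7 higher, with a median of 0.04 (-0.01 to 0.06) and 0 past 1.25-fold, and 5 of 10 were lower by the brightest probe. The difference between these lists was not tested.

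**Figure D4:**
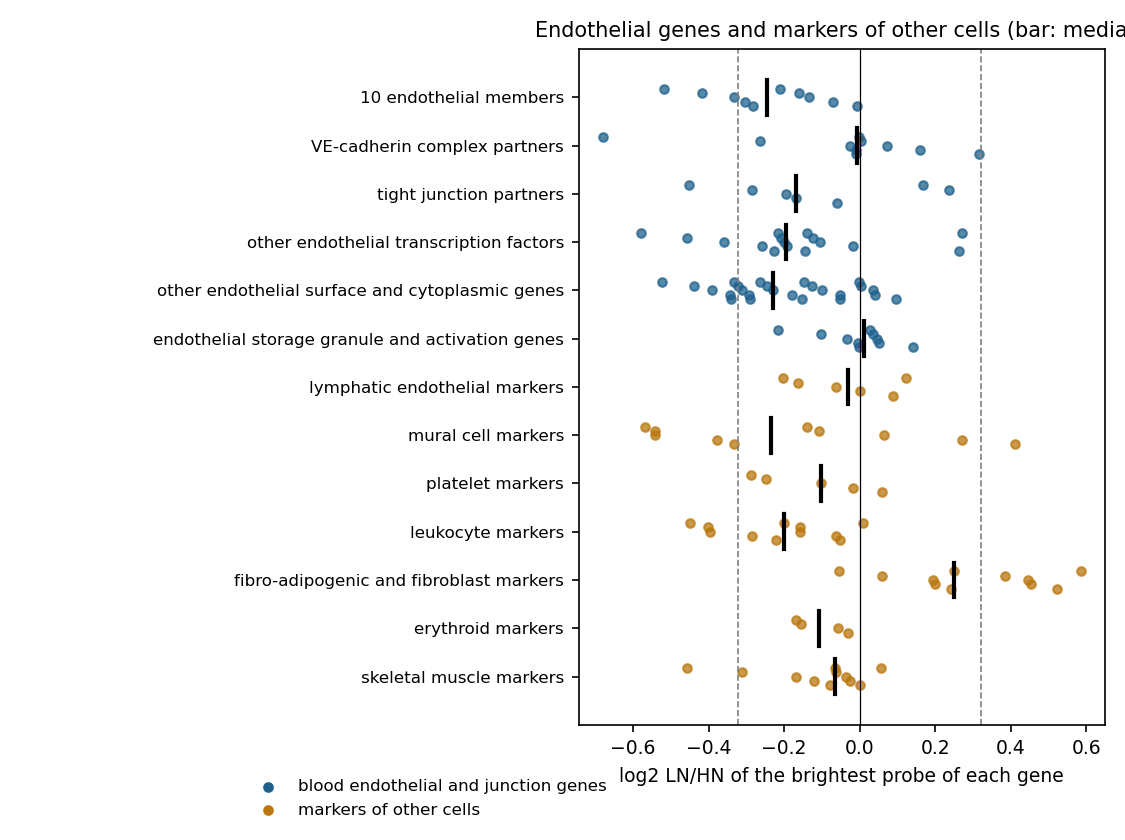
Log2 LN/HN of the brightest probe of each gene (points) and its median (bar) for the 10 endothelial genes, the related endothelial lists and markers of other cells, with dashed lines at 1.25-fold. The median of the 10 endothelial genes is -0.25 and that of the fibro-adipogenic and fibroblast markers 0.25.

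Markers of other cells differed between the pools as well, and their medians are given with the same range over the other settings. Their counts stand against the same shares of all genes as those of the endothelial lists. Of 10 mural cell markers with a value, those of pericytes and smooth muscle around the vessels, 7 were lower. By their means 5 passed 1.25-fold lower and 1 (*PDGFRB*) higher. The median was -0.32 (-0.34 to -0.19) and the summed signal 20639 on HN and 17651 on LN. The pericyte genes *KCNJ8* and *HIGD1B* were both at -0.54, and the smooth muscle genes *MYH11*, *TAGLN* and *ACTA2* at -0.49, -0.33 and -0.33. *PDGFRB*, *LMOD1* and *CSPG4* were higher, at 0.49, 0.14 and 0.11 by their means and at 0.06, 0.41 and 0.27 by their brightest probes. The *PDGFRB* probes are dim, the brightest with 4.63 on HN and 4.69 on LN. By the brightest probe 7 of the 10 mural markers were lower, 5 passed 1.25-fold lower and 1 (*LMOD1*) higher, with a median of -0.24. Leukocyte markers, which bear on *PECAM1*, were lower in 9 of 11 genes, with 3 past 1.25-fold lower, a median of -0.19 (-0.22 to -0.10, the last after normexp), and a summed signal of 4731 on HN and 4245 on LN. *CORO1A* was at -0.45, *CD53* at -0.44 and *CD68* at -0.35, and of the B cell markers *MS4A1* was not well above background and *CD79A* was at 0.01. Platelet markers, which bear on *PECAM1* and *VWF*, were lower in 4 of 5 genes, with a median of -0.10 (-0.25 to 0, the last after normexp) and a low summed signal of 180 on HN and 169 on LN.

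Fibro-adipogenic and fibroblast markers, which bear on *CD34*, were higher in 10 of 11 genes, 5 of them past 1.25-fold, with a median of 0.22 (0.11 after normexp to 0.33 with bright probes alone) and a summed signal of 124605 on HN and 160781 on LN. *MFAP5* was at 0.42, *PI16* at 0.38, *LUM* at 0.35 and the collagen genes *COL1A1* and *COL3A1* at 0.34 and 0.33. The bright *CD34* probe was lower in the LN pool while these markers were higher. Of 6 lymphatic markers with a value, 3 were lower and 3 higher, with a median of 0.03 (-0.04 to 0.12), or -0.03 by the brightest probe. Erythroid markers were lower in 4 of 4 genes with a value (median -0.11, range -0.19 to -0.03, summed signal 644 on HN and 579 on LN), and *SLC4A1*, *RHAG* and *KLF1* were not well above background. Skeletal muscle markers were lower in 9 of 11 genes with a median of -0.15 (-0.17 to -0.05), or -0.07 by the brightest probe, among them the fast myosin gene *MYH1* at -0.50 and myoglobin (*MB*) at -0.37. The part of these cells in the values of the endothelial genes was not tested.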

How the data were processed

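Pooled LT muscle RNA of the HN and LN groups was measured on 1 array each. The authors extracted the spots with Agilent Feature Extraction 11.0.1.1 (submitters' processing notes) and deposited background-corrected intensities per spot, with flags as other columns. They also deposited log2 values normalized by the quantile method. Here quantile normalization was applied to the log2 of the intensities (limma 3.58.1, R 4.3.3), 13 flagged spots were removed and spots of a probe averaged. A probe was detected where most of its spots were well above background. Where this held on 1 array, the signal on the other array was replaced by that array's lowest detected signal (log2 2.27 on HN, 2.82 on LN) or kept if higher. Genes were given the mean of their probes with a fold. Accessions matched symbols of assembly ARS-UCD2.0 for 26742 probes, and other probes were grouped by accession. Coordinates are not given because the array design uses an older assembly. No probe sequences were used here.

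All members are named with every matched probe, and of other lists up to the 3 largest values in each direction, while genes past 1.25-fold could also be named. The members and lists were chosen with earlier results of these data known. Some list members are not reported here. The alternatives were 75th percentile scaling, cyclic loess, no normalization, normexp with offset 50 on the median spot signal, the authors' log2 values, and other rules on dim probes and on the probes of a gene. The restriction to bright probes, and the brightest probe combined with 75th percentile scaling or normexp, were added after seeing the data. Steps were tested on simulated data. Python 3.11.15, numpy 2.4.6, pandas 2.3.3, scipy 1.17.1 and matplotlib 3.10.9 were used.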

Additional observations from a re-analysis of the deposited data

How the results depend on the processing

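Over 15 other settings, 7 to 10 of the endothelial genes were lower and 2 to 3 passed 1.25-fold lower. The median lay between -0.27 and -0.14, with the lowest value from the authors' normalized values (-0.27) and -0.26 from the brightest probe after normexp. The SD between the genes ranged from 0.14 to 0.28. It was 0.17 after normexp, 0.16 by the brightest probe, 0.16 by the brightest probe combined with 75th percentile scaling, 0.17 by the brightest probe after normexp and 0.14 with bright probes alone, and 0.23 to 0.28 in the other 10 settings. The cause was not tested. *CDH5*, *CLDN5*, *ESAM*, *PECAM1*, *SOX17* and *SOX18* were below 0 in all 15, *CD34* in 5, *ERG* in 8, *CLEC14A* in 10 and *VWF* in 12. Scaling to the 75th percentile put the median of all genes at -0.04, with 58.4% of genes lower. After normexp 1.96% of genes passed 1.25-fold lower. No paired analysis was possible because each group has 1 array, and no replicate could be left out. Dim probes limit *CD34*, *ERG* and *VWF*.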
